A study of Mus musculus with 8 samples.

Results

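The aminoacyl tRNA synthetases of mouse liver were followed by mRNA level after extended hepatectomy, an operation that leaves only a small remnant of the organ to regrow. The set was chosen by gene symbol from the deposited expression table. All 36 listed symbols were found among its 47719 genes, 20 for cytosolic enzymes and 16 for mitochondrial enzymes, whose symbols end in 2. RNA was sequenced from livers of wild type C57BL/6 mice in 8 libraries: 2 from normal controls aged 10 weeks, 4 from mice at day 2 after the operation and 2 from mice at day 14 after it. The study tests encapsulated human hepatocyte organoids in liver failure. Its design text gives EMC, a treated control, and eLO at day 2, and eLO alone at day 14. No label places a day 2 library under either treatment, so the 4 libraries formed a single group and surgery, time and treatment cannot be told apart. The labels do not state separate mice for the libraries of a group, so p-values measure the spread between libraries, which may be technical. In bulk tissue, fewer cells of a type and less RNA per cell cannot be told apart.

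A synthetase joins an amino acid to the tRNAs that carry its codons' anticodons, the step that fixes the genetic code in protein synthesis. The cytosol and the mitochondrion mostly use separate nuclear genes for this, but Gars and Kars each supply both compartments, and Eprs carries the glutamate and the proline enzyme in a single protein. Several cytosolic enzymes are held in a multi-synthetase complex on the scaffold proteins encoded by Aimp1, Aimp2 and Eef1e1. Many cytosolic synthetase genes are targets of ATF4, the transcription factor of the amino acid and integrated stress response, which binds C/EBP-ATF composite elements.

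Libraries differed in ways that bear on these values. Relative depth, read from the commonest ratio of FPKM values under 0.1, ran from 0.634 to 1.133 of control replicate 1, and absolute depth was unknown. Across tested genes the controls correlated at r = 0.988 and the day 14 libraries at 0.963, while the day 2 group was split, with 0.959 between replicates 1 and 2, 0.968 between replicates 3 and 4, and at most 0.926 across. These values are across genes, which are not independent replicates. Summed FPKM of 5 cycling markers was 381 and 551 in day 2 replicates 3 and 4 and between 1.29 and 8.01 in the other libraries. The summed level of 7 hepatocyte markers lay between 38500 and 67500 in all libraries. Neutrophil markers summed to 4.12 and 7.78 in control, 31.8 to 325 at day 2 and 16.1 to 76.5 at day 14, where 5 of 8 reached 1 FPKM in at least 2 libraries. The 5 sinusoidal endothelial markers summed to 82.1 and 89.4 in control, 23.8 to 70.2 at day 2 and 39.0 to 56.8 at day 14. Erythroid markers summed to 340 and 415 in control, 350 to 1550 at day 2 and 1180 to 2580 at day 14. Sums of Kupffer cell, stellate cell and monocyte markers were lower in both day 14 libraries than in both controls, at 46.9 and 47.7 beside 75.8 and 91.8 for Kupffer cells. The part of these shifts in the results below was not tested.

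Because part of the cytosolic set is known to answer ATF4, promoter windows were read for the composite element before the levels are given. RefSeq windows of GRCm38.p6, 250 bases before to 50 after the annotated start, were matched for 27 of the 36 genes. Cars, Hars, Lars, Nars, Rars, Vars, Wars, Hars2 and Pars2 had no matched window, so whether they hold the element was not read. The letters TGATGNAAN were searched on both strands and no other motif was searched. They were present for Aars, Gars, Iars, Tars and Yars, which is 5 of 13 matched cytosolic genes, and for 0 of 14 matched mitochondrial genes. Among all 27025 genes with such windows, 4.5% held the letters. The stricter TGATGCAAT was present for 2 of the 27 matched members and for 0.22% of all genes. A match describes letters and not a bound site. The match nearest to the start of each of the 5 genes is written 5′ to 3′ on the gene's own strand, with the match in capitals. They are shown because the values of these 5 genes are set side by side further on:
Aars: agcgggtcacTTTTCATCAgagcgctctg
Gars: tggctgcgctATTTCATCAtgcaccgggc
Iars: cactgtcagtATTGCATCAcctccagacg
Tars: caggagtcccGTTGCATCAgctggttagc
Yars: cgagctcagcTGATGCAACccgacgggac

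The match in Yars was on the gene's own strand and the other 4 shown were on the opposite strand. The Aars stretch lies at chr8:111033840-111033868 and that of Gars at chr6:55037960-55037988. Those of Iars, Tars and Yars lie at chr13:49682126-49682154, chr15:11399656-11399684 and chr4:129189896-129189924. The match of Gars begins 31 bases before the annotated start and that of Tars 16. Those of Aars, Iars and Yars begin within 8 bases after it.

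In normal liver the synthetases spanned 0.465 to 63.8 FPKM, fragments per kilobase of transcript and per sequencing depth, so that genes can be compared. Tars, for threonine, was the most abundant at 63.8 ± 0.370 FPKM (SD, n = 2), followed by Nars for asparagine at 43.1 ± 0.657 and Aars for alanine at 40.2 ± 0.0527. Lars, for leucine, was the least abundant cytosolic member at 7.83 ± 0.611 FPKM. Among mitochondrial members Fars2, for phenylalanine, stood highest at 16.5 ± 0.788 and Mars2, for methionine, lowest at 0.465 ± 0.107. Mars2 stayed between 0.239 and 0.629 FPKM in all 8 libraries and was the 1 member that did not reach 1 FPKM in 2 libraries, so 35 members were tested. The mitochondrial genes reached 13.0 FPKM for Iars2, 14.8 for Lars2 and 16.5 for Fars2 in control, and 11 of the 12 most abundant members were cytosolic. After surgery the order changed. Tars went from rank 1 of 36 in control to rank 10 at day 2 and rank 10 at day 14, Mars from rank 10 to rank 1 at both times, and Vars from rank 26 to rank 3 and rank 8.

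**Figure D1:**
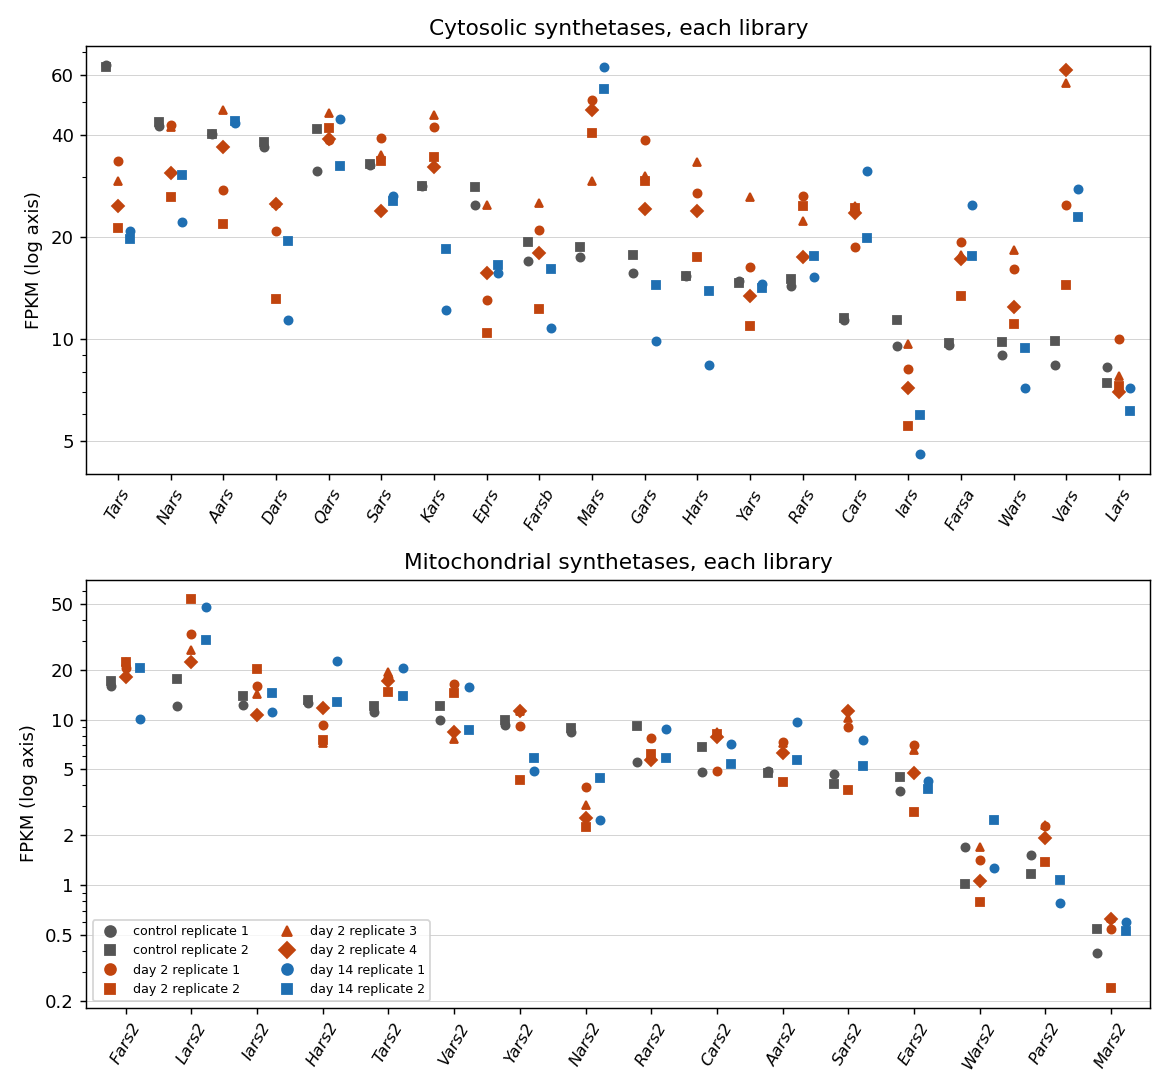
FPKM on a log axis for each of the 36 synthetases in each of the 8 libraries, cytosolic above and mitochondrial below, ordered by mean control level; color gives the group and symbol the replicate. Tars is the highest gene in control at 63.8 FPKM and drops in all other libraries, while Mars2 stays under 1 FPKM throughout.

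The comparison of day 2 with control asks how the liver at day 2 after hepatectomy differed from intact liver. Mars and Cars, the cytosolic enzymes for methionine and cysteine, rose, while Tars and the mitochondrial asparagine enzyme gene Nars2 fell. These 4 of 35 tested members are 11.4%, against 21.2% of all 12340 genes called in either direction (9.72% higher, 11.5% lower). Calls were made with limma on log2(FPKM + 1) at a Benjamini-Hochberg adjusted p under 0.05 over all genes, and each log2 change is on that scale, which understates the change of low genes. At an unadjusted p under 0.05 there were 12 of the 35 members, beside 4633 of all 12340 genes.

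In control, Mars measured 17.4 and 18.7 FPKM. The day 2 libraries, replicates 1 to 4, gave 50.6, 40.5, 29.3 and 47.3 FPKM. Every day 2 library was above both controls, the lowest being replicate 3, and the log2 change was 1.14 ± 0.26 (SE; limma adjusted p = 0.0199). The gene lies on chromosome 10 at 127296221 to 127311786 (GRCm38, GENCODE M21), and 68 bases of its exons, 1.99%, overlap Ddit3 on the opposite strand, so reads there cannot be assigned if the counting ignored strand. Ddit3, itself a stress response factor, was at 8.04 and 7.55 FPKM in control and at 11.1, 17.8, 7.82 and 22.4 at day 2, and was not called (limma adjusted p = 0.188).

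Cars, on chromosome 7 at 143557230 to 143600090, stood at 11.4 and 11.5 FPKM in control and at 18.7, 24.3, 24.7 and 23.6 FPKM at day 2. The groups did not overlap and replicate 1 was the lowest of the 4. The log2 change was 0.92 ± 0.24 (limma adjusted p = 0.0306), and 0.78 ± 0.24 with adjusted p = 0.0621 once the trend of each library with transcript length and GC content was removed. Without day 2 replicate 4 it did not pass either.

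Tars, on chromosome 15 at 11382301 to 11399665, went from 64.1 and 63.5 FPKM in control to 33.4, 21.3, 29.3 and 24.7 FPKM at day 2. All day 2 libraries were well under both controls, and the log2 change was -1.22 ± 0.23 (limma adjusted p = 0.0111). Of the 5 genes holding the ATF4 element letters, Tars was the 1 called at day 2. Over all tested genes 21.2% were called there in either direction.

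Nars2, on chromosome 7 at 96951505 to 97064758, stood at 8.45 and 8.90 FPKM in control and at 3.91, 2.24, 3.06 and 2.53 FPKM at day 2. No day 2 library reached either control, and the log2 change was -1.32 ± 0.26 (limma adjusted p = 0.0122). Its cytosolic counterpart Nars was at 42.6 and 43.6 FPKM in control and spread from 26.3 to 42.9 FPKM at day 2, with a log2 change of -0.30 ± 0.27 (limma adjusted p = 0.438).

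All 4 of these calls were lost when either control was left out. That left a lone control, assumed to vary like the other groups, and over all genes left 96 or 92 calls in place of 2620. Without day 2 replicate 2 there were 7 calls, with the valine gene Vars, the phenylalanine subunit gene Farsa and the mitochondrial serine gene Sars2 added.

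Several cytosolic members stood just outside the threshold at day 2. Vars measured 8.41 and 9.88 FPKM in control, and 24.9, 14.4, 56.9 and 62.3 FPKM at day 2. It was above control in every library, with replicates 3 and 4, the libraries with high cycling markers, far above the other 2 (log2 change 1.78 ± 0.54; limma adjusted p = 0.0508). Gars, for glycine, was at 15.7 and 17.7 FPKM in control and at 38.7, 29.3, 30.3 and 24.1 FPKM at day 2 (log2 change 0.82 ± 0.25; limma adjusted p = 0.0519). Farsa, the catalytic subunit for phenylalanine, was at 9.62 and 9.75 FPKM in control and at 19.3, 13.4, 17.7 and 17.2 FPKM at day 2 (log2 change 0.73 ± 0.23; limma adjusted p = 0.0541). Its partner subunit gene Farsb was at 17.0 and 19.3 FPKM against 21, 12.3, 25.2 and 17.9 FPKM, so that its groups overlapped, at a log2 change of 0.03 ± 0.30.

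Ranges of the groups separated in more members than passed the test. In 12 members, 34.3%, all day 2 libraries were above both controls, against 26.1% of all tested genes, and in 4 members, 11.4%, all were below, against 25.4%. Of the 12 higher members 9 were cytosolic, among them the arginine gene Rars, the tryptophan gene Wars, the lysine gene Kars and the histidine gene Hars. This is 45% of the 20 cytosolic members, beside 20% of the 15 tested mitochondrial members. Below both controls were 10% and 13.3%. The lower members were Tars, the aspartate gene Dars, Nars2 and the mitochondrial histidine gene Hars2. Dars stood at 36.9 and 38.1 FPKM in control and at 20.8, 13.1, 25.1 and 25.0 FPKM at day 2 and did not pass the test (log2 change -0.85 ± 0.32; limma adjusted p = 0.0919).

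The remaining cytosolic members moved little or in no shared direction at day 2. The log2 changes of the glutamine gene Qars, the tyrosine gene Yars, Lars and the serine gene Sars lay between -0.01 and 0.18. Those of Aars, the isoleucine gene Iars and the fused glutamate and proline gene Eprs were -0.32 ± 0.30, -0.42 ± 0.24 and -0.76 ± 0.32. Eprs stood at 24.8 and 28.1 FPKM in control and at 13.0, 10.4, 24.9 and 15.7 FPKM at day 2, with replicate 3 at the control level. Without that replicate its log2 change was -0.98 ± 0.24 and it passed (limma adjusted p = 0.0253).

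**Figure D2:**
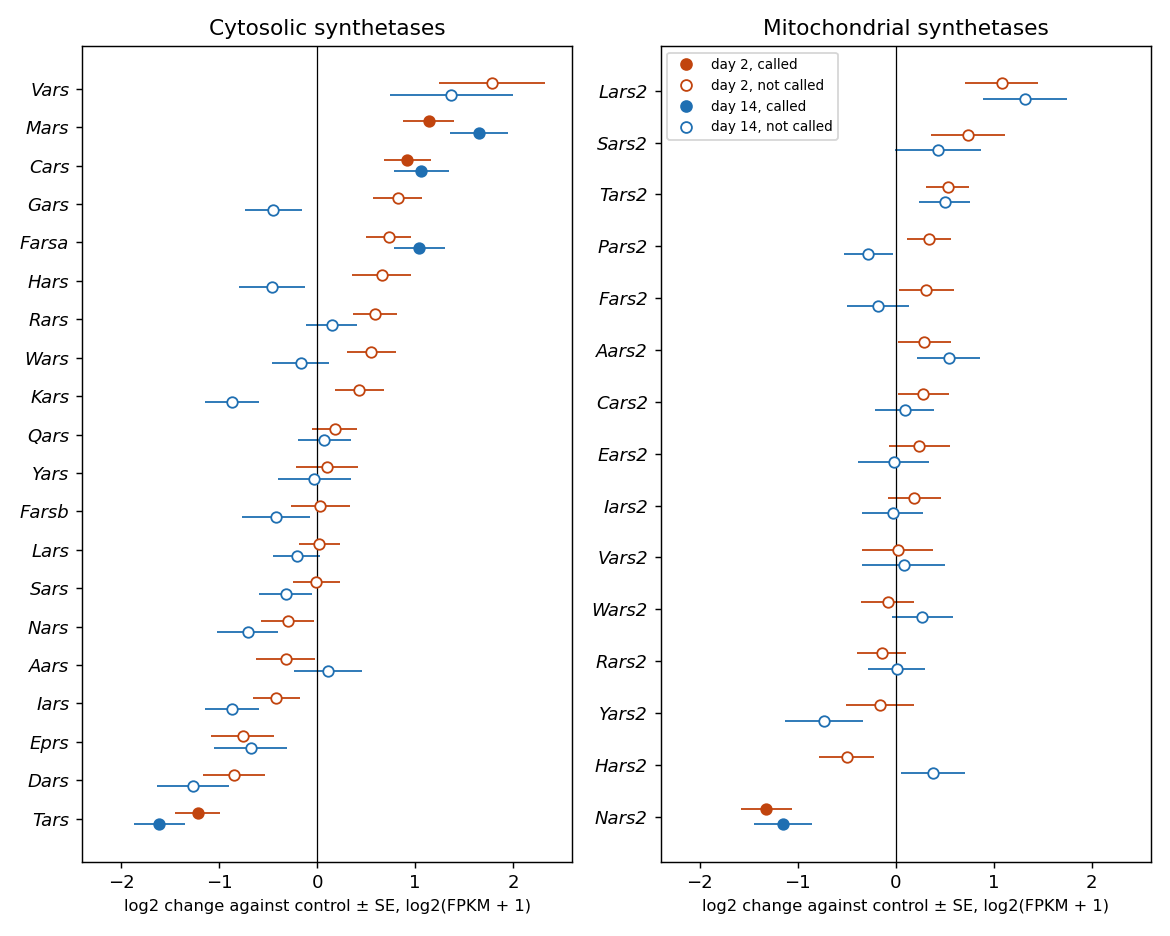
Log2 change of each tested synthetase against control, with SE from limma on log2(FPKM + 1), at day 2 in red and day 14 in blue; filled points passed an adjusted p under 0.05. Mars and Cars are filled on the right and Tars and Nars2 on the left at both times, Farsa at day 14 alone, and Gars, Hars and Kars lie on opposite sides of 0 at the 2 times.

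The comparison of day 14 with control asks how far the liver differed from intact tissue at the later time. Mars, Cars and Farsa rose and Tars and Nars2 fell. These 5 of 35 members are 14.3%, against 9.79% of all tested genes (5.21% higher, 4.58% lower). An unadjusted p under 0.05 was found for 9 of the 35 members, beside 3673 of all 12340 tested genes. This comparison uses the same 2 control libraries as the comparison at day 2, so values at the 2 times are given side by side and are not independent.

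Mars reached 63.5 and 54.5 FPKM at day 14, above every other library, with a log2 change of 1.65 ± 0.30 (limma adjusted p = 0.0272). Tars was at 20.8 and 19.7 FPKM, under every control and day 2 library, with a log2 change of -1.61 ± 0.26 (limma adjusted p = 0.0219). Cars was at 31.3 and 19.9 FPKM, with replicate 1 the highest of all libraries (log2 change 1.06 ± 0.28; limma adjusted p = 0.0495). Farsa, on chromosome 8 at 84856989 to 84869257, was at 24.8 and 17.6 FPKM, above both controls and overlapping day 2 (log2 change 1.04 ± 0.26; limma adjusted p = 0.0472). Nars2 was at 2.49 and 4.45 FPKM, within or just above the day 2 range and under both controls (log2 change -1.15 ± 0.30; limma adjusted p = 0.0484).

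The calls of Cars, Farsa and Nars2 lay close to the threshold, and of 16 alternatives they kept their call in 4, 5 and 4. Mars and Tars each kept it in 13, losing it without either control or without day 14 replicate 1. Each of these fits left 1 library in a group, and nearly all calls over the whole table were lost there too. Over the 16 alternatives the log2 change ran from 1.54 to 1.76 for Mars and from -1.65 to -1.33 for Tars. Without day 2 replicate 2, which enters the shared spread, 9 members were called, and without day 2 replicate 1, 3 or 4 there were 2 in each case.

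At day 14 the ranges were below both controls in 15 members, 42.9%, against 35.7% of all tested genes, and above in 10, 28.6%, against 35.3%. Of the 15 lower members 12 were cytosolic, 60% of the 20 cytosolic members, beside 20% of the 15 tested mitochondrial members. Above both controls were 30% of the cytosolic and 26.7% of the mitochondrial members. The difference between the classes was not tested. Dars stood at 11.4 and 19.5 FPKM (log2 change -1.27 ± 0.37; limma adjusted p = 0.0656), Iars at 4.57 and 5.98 FPKM (-0.87 ± 0.28; adjusted p = 0.0831) and Nars at 22.1 and 30.5 FPKM (-0.71 ± 0.31; adjusted p = 0.17). Aars was at 43.3 and 43.8 FPKM beside 40.2 and 40.2 in control, so the 2 groups were apart by less than the day 2 spread of 21.9 to 47.2 FPKM.

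All 6 libraries after hepatectomy were above both controls in 7 members, Mars, Cars, Farsa, Vars, Rars, Lars2 and Tars2. This is 20% of the tested members, against 15.7% of all tested genes. All 6 were below in 3 members, Tars, Dars and Nars2, which is 8.57% against 16.7%. Tars2, the mitochondrial threonine gene, was at 11.1 and 12.1 FPKM in control, 17.9, 14.7, 19.4 and 17.0 at day 2 and 20.5 and 13.8 at day 14, and did not pass in either comparison (limma adjusted p = 0.124 and 0.231).

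Between day 2 and day 14, Gars, Kars and Hars fell. They are 3 of 35 members, 8.57%, against 16.1% of all tested genes in either direction and 7.03% lower, and 0 members rose, against 9.09% of all genes higher. With an unadjusted p under 0.05 there were 6 of the 35 members, of which Hars2 was higher at day 14, beside 4200 of all 12340 tested genes. The day 14 libraries lay below all day 2 libraries in 6 members, 17.1%, against 20.4% of all tested genes, and above in 2, 5.71%, against 21.2%.

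Gars, on chromosome 6 at 55038007 to 55079500, stood at 9.86 and 14.4 FPKM at day 14, beside 24.1 to 38.7 FPKM at day 2, with a log2 change of -1.27 ± 0.25 (limma adjusted p = 0.0166). Kars, on chromosome 8 at 111993443 to 112011323, was at 28.2 and 28.3 FPKM in control, at 42.3, 34.4, 45.9 and 32.2 FPKM at day 2 and at 12.2 and 18.4 FPKM at day 14. The 3 groups of Kars did not overlap, with day 2 highest and day 14 lowest, and its log2 change from day 2 to day 14 was -1.29 ± 0.25 (limma adjusted p = 0.0149). Against control, neither gene passed at either time, Kars with 0.43 ± 0.25 at day 2 and -0.87 ± 0.28 at day 14. These are the members that serve both the cytosol and the mitochondrion.

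Hars, on chromosome 18 at 36766528 to 36783205, was at 15.3 and 15.3 FPKM in control, at 26.9, 17.4, 33.3 and 23.9 FPKM at day 2 and at 8.41 and 13.9 FPKM at day 14. Its 3 groups were likewise apart, and the log2 change from day 2 to day 14 was -1.12 ± 0.30 (limma adjusted p = 0.0404). The mitochondrial histidine gene Hars2 starts next to it on the opposite strand, at 36783008 to 36792562, and the annotated exons of the genes share 195 bases. Hars2 was at 12.5 and 13.2 FPKM in control, at 9.30, 7.55, 7.26 and 11.7 at day 2 and at 22.7 and 12.7 at day 14, with a log2 change from day 2 to day 14 of 0.88 ± 0.28 (limma adjusted p = 0.0681). Without day 14 replicate 2 it was 1.28 ± 0.30 and passed (adjusted p = 0.0451).

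The 3 calls were lost without day 14 replicate 1, as were nearly all calls over the whole table, since that fit left 1 library at day 14. The log2 changes there were -1.02 for Gars, -1.02 for Kars and -0.78 for Hars. Gars and Kars kept theirs in the other 15 alternatives and Hars in 8 of 16. Without day 2 replicate 2 there were 6 calls, all lower at day 14, with Wars, Pars2 and Yars2 added.

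**Figure D3:**
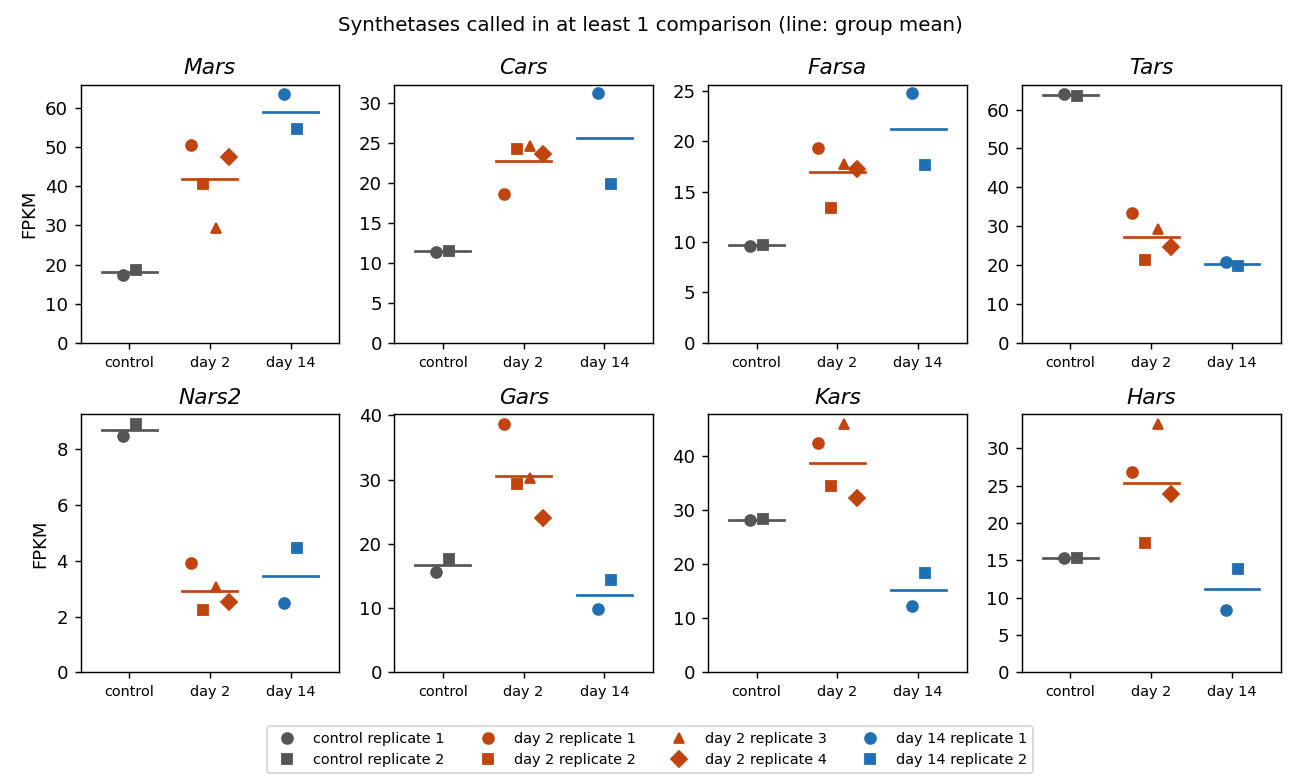
FPKM in each library, on linear axes from 0, of the 8 synthetases called in at least 1 comparison; lines are group means, colors groups and symbols replicates. Mars, Cars and Farsa lie above control after surgery, Tars and Nars2 below, and Gars, Kars and Hars are highest at day 2 and lowest at day 14.

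Cytosolic and mitochondrial enzymes were then compared as classes, as descriptions without a test. The median log2 change against the control mean for 20 cytosolic members was 0.29, 0.10, 0.51 and 0.04 at day 2, by replicate, and -0.32 and -0.16 at day 14. For 15 mitochondrial members it was 0.30, -0.17, 0.42 and 0.17 at day 2, and 0.26 and -0.01 at day 14. Over all tested genes these medians lay between -0.04 and 0.04. The classes thus overlapped at day 2, and at day 14 the cytosolic median was the lower one in both libraries.

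From the fit, the median log2 change of the cytosolic members was 0.14 at day 2 and -0.26 at day 14 against control, beside 0.24 and 0.08 for the mitochondrial members. From day 2 to day 14 it was -0.40 for the cytosolic members, of which 15 of 20 were lower, and -0.02 for the mitochondrial members, of which 8 of 15 were lower. Of the 8 called members 7 were cytosolic, among them Gars and Kars, which serve both compartments, and the other was Nars2. Cytosolic members were 20 of the 35 tested. Of them 15% were called at day 2, 20% at day 14 and 15% between the times. For mitochondrial members these shares were 6.67%, 6.67% and 0%, and for all tested genes 21.2%, 9.79% and 16.1%. The difference between the classes was not tested. Median FPKM in control was 16.3 and 18.2 for the cytosolic and 7.01 and 9.0 for the mitochondrial class. The scale of the fit understates the change of low genes. Changes of over 1 log2 unit at day 14 were seen in 6 of 20 cytosolic members and in 2 of 15 mitochondrial members, Lars2 and Nars2, beside 20% of all tested genes. Longest transcripts had a median of 3065 bases in the cytosolic and 3366 bases in the mitochondrial class, beside 3103 bases over all tested genes.

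Summed over members, cytosolic FPKM was 451 and 476 in control, 535, 414, 597 and 502 at day 2 and 421 and 419 at day 14. Mitochondrial FPKM summed to 119 and 137 in control, 166, 167, 155 and 141 at day 2 and 175 and 141 at day 14. Lars2 alone gave 12.1 and 17.5 of this in control, 32.8, 53.4, 26.3 and 22.2 at day 2 and 48.0 and 30.1 at day 14. Much of the difference between the mitochondrial sums thus lay in this gene. The ratio of the sums was 3.80 and 3.49 in control, from 2.48 to 3.86 at day 2, and 2.40 and 2.98 at day 14, where both libraries were below both controls.

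For 16 pairs of cytosolic and mitochondrial enzymes serving the same amino acid, with Eprs entering as the partner of both Ears2 and Pars2, the ratio of levels was read in each library. In control, 12 pairs had the cytosolic enzyme higher in both libraries, most of all methionine with Mars over Mars2 at a log2 ratio of 5.48 and 5.11. Valine, isoleucine, phenylalanine and leucine had the mitochondrial enzyme higher. For phenylalanine this was read from Farsa, and the other subunit gene Farsb was above Fars2 in both controls, at 17.0 and 19.3 beside 16.0 and 17.1 FPKM. For leucine the log2 ratio of Lars to Lars2 was -0.55 and -1.24 in control and between -2.88 and -1.67 in all other libraries.

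Of the 16 pairs, threonine showed the widest loss of cytosolic excess at both times. The log2 ratio of Tars to Tars2 was 2.53 and 2.39 in control, 0.90, 0.53, 0.59 and 0.54 at day 2, and 0.02 and 0.51 at day 14, so that the levels of the enzymes were nearly equal in day 14 replicate 1. Asparagine went the other way, as Nars2 fell: the log2 ratio of Nars to Nars2 was 2.34 and 2.29 in control, 3.46, 3.55, 3.78 and 3.61 at day 2 and 3.15 and 2.78 at day 14. Cysteine also moved toward the cytosolic enzyme, with Cars to Cars2 at 1.24 and 0.76 in control, 1.55 to 1.94 at day 2 and 2.15 and 1.89 at day 14. For histidine the ratio of Hars to Hars2 was 0.30 and 0.22 in control, between 1.03 and 2.2 at day 2, and -1.44 and 0.14 at day 14, where replicate 1 had Hars2 higher. Glutamate moved toward the mitochondrial enzyme, with Eprs to Ears2 at 2.74 and 2.64 in control and between 0.89 and 2.12 in all libraries after surgery. Valine changed sides. Vars was below Vars2 in both controls, at log2 ratios of -0.24 and -0.29, nearly level in day 2 replicate 2 at -0.01, and above it at 0.61, 2.89 and 2.89 in day 2 replicates 1, 3 and 4 and at 0.82 and 1.41 at day 14. In replicates 3 and 4 Vars2 itself was low, at 7.65 and 8.41 FPKM beside 16.3 and 14.5 in replicates 1 and 2.

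**Figure D4:**
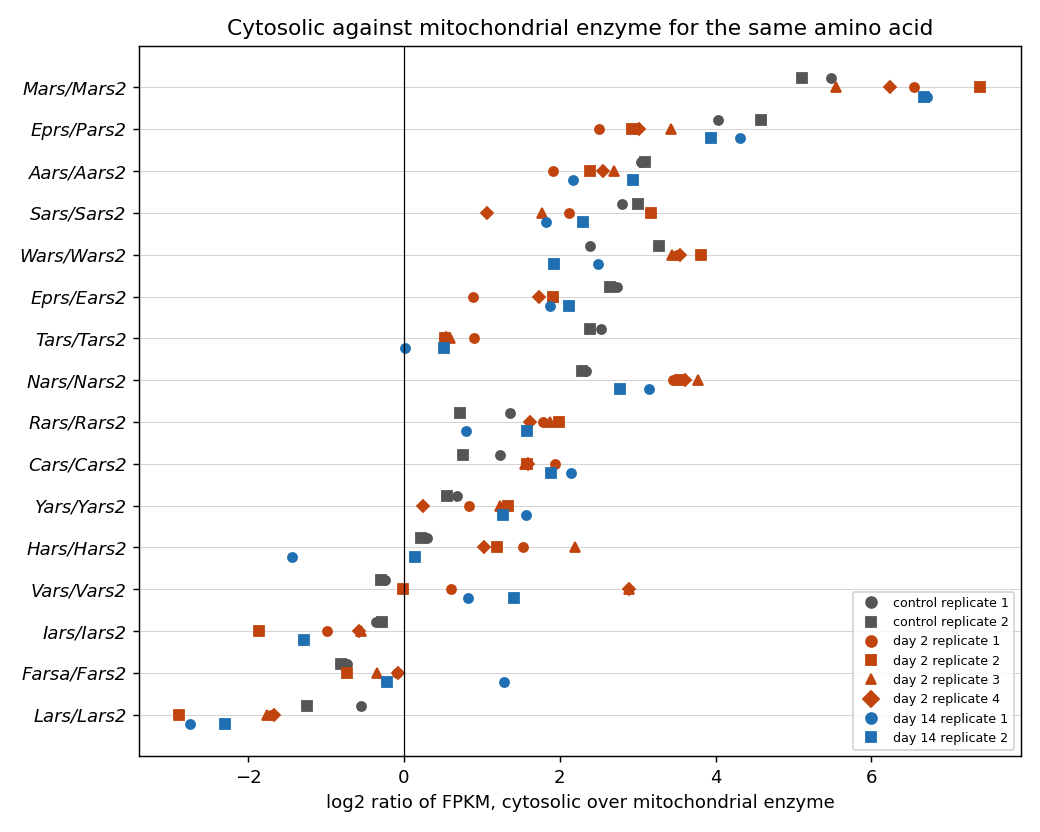
Log2 ratio of FPKM, cytosolic over mitochondrial enzyme, for 16 pairs in each library; points right of the line at 0 have the cytosolic enzyme higher, colors are groups and symbols replicates. Tars/Tars2 moves left from 2.53 and 2.39 in control, Nars/Nars2 moves right, and Vars/Vars2 crosses 0.

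Lars2, the mitochondrial leucine gene on chromosome 9 at 123366927 to 123462666, had the largest values of change in its class above 0. It was at 12.1 and 17.5 FPKM in control, at 32.8, 53.4, 26.3 and 22.2 FPKM at day 2 and at 48.0 and 30.1 FPKM at day 14. All libraries after surgery were above both controls, but it did not pass in either comparison (log2 change 1.08 ± 0.37 and 1.32 ± 0.43; limma adjusted p = 0.0731 and 0.0855). The gene models Gm42418 and Gm26917 on chromosome 17, known to collect reads of ribosomal RNA, were chosen for comparison after their values were seen. Gm42418 was at 61.9 and 78.3 FPKM in control, at 260, 369, 188 and 145 at day 2 and at 323 and 230 at day 14, with the same order of the 4 day 2 libraries as Lars2. Gm26917 was at 18.3 and 20.5 FPKM in control, at 43.3, 35.4, 93.1 and 81.1 at day 2 and at 133 and 82.3 at day 14, and its order at day 2 was unlike that of Lars2, being lowest in replicate 2. Their part in the level of Lars2 was not tested.

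No other mitochondrial member besides Nars2 passed in any comparison by limma. Sars2 was at 4.67 and 4.09 FPKM in control and at 9, 3.73, 10.2 and 11.3 at day 2, where replicate 2 was below both controls and the other 3 above (log2 change 0.74 ± 0.38; limma adjusted p = 0.194). Yars2, for tyrosine, was at 9.22 and 9.91 FPKM in control, 9.10, 4.31, 11.2 and 11.3 at day 2 and 4.90 and 5.84 at day 14. The alanine, cysteine, glutamate and arginine genes Aars2, Cars2, Ears2 and Rars2 had log2 changes between -0.14 and 0.29 at day 2 and between -0.02 and 0.54 at day 14. Iars2, Fars2 and the low genes Pars2 for proline and Wars2 for tryptophan lay between -0.28 and 0.34 in both comparisons. Exons of Iars2 overlap Rab3gap2 on the opposite strand over 2034 bases, 22.89% of the exon bases of Iars2, so its level is uncertain if strand was ignored. Exons of Aars overlap Exosc6 over 1326 bases, 14.29%, on the same strand, and for the other members the overlap with any 1 gene was at most 9.47%, for Farsb with Sgpp2.

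The 8 enzymes of the multi-synthetase complex, Dars, Eprs, Iars, Kars, Lars, Mars, Qars and Rars, did not all move in the same direction. Mars rose at day 2 and at day 14, Kars fell between them, and the other 6 were not called in any comparison. Calls were 12.5% of the 8 in each comparison, beside 21.2%, 9.79% and 16.1% of all tested genes. Log2 changes of the 8 enzymes spanned -0.85 to 1.14 at day 2 and -1.27 to 1.65 at day 14. At day 14, 5 of the 8 lay below both controls, 62.5% beside 35.7% of all tested genes. Above both controls were 2, 25% beside 35.3%. The median of the 8 against the control mean was -0.41 and -0.45 in the day 14 libraries. Of the 3 scaffold genes Eef1e1 rose at day 2, from 7.40 and 9.25 FPKM to 16.0, 13.2, 15.1 and 18.3 (log2 change 0.84 ± 0.21; limma adjusted p = 0.0275). Aimp1 and Aimp2 did not pass, at 0.54 ± 0.21 and 1.20 ± 0.41. The day 2 libraries of all 3 scaffold genes were above both controls, as in 26.1% of all tested genes. By the catalytic class, which divides synthetases by the fold of their active site, the calls at day 2 were 2 higher of 17 in class I and 2 lower of 17 in class II, each 11.8%, near the 9.72% higher and 11.5% lower over all tested genes. The 3 genes that fell from day 2 to day 14 were of class II, and 0 of 17 in class I were called there. These are 17.6% and 0%, beside 7.03% lower over all tested genes, and the difference between the classes was not tested. An unadjusted p under 0.05 was found there for 5 of 17 in class II and 1 of 17 in class I, beside 4200 of all 12340 tested genes.

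Genes that work beside the synthetases gave a mixed picture. Of 31 listed ATF4 and amino acid response genes other than synthetases, 27 were tested. At day 2, 7 rose and 1 fell, together 29.6% beside 21.2% of all tested genes, with a list median of 0.74 log2 units beside 0.05 for all tested genes. Psat1, a serine synthesis enzyme, rose by 2.74 ± 0.32 log2 units, from 0.331 and 0.184 FPKM to between 4.95 and 12.7 FPKM (limma adjusted p = 0.00287). The stress cytokine gene Gdf15 rose by 2.74 ± 0.45, and the stress factor gene Atf3 by 1.46 ± 0.30. Atf4 itself was at 68.1 and 52.5 FPKM in control and at 99.7, 179, 64.2 and 65.5 at day 2, with replicates 3 and 4 within the control range (log2 change 0.63 ± 0.41; limma adjusted p = 0.298). Asns, the asparagine synthetase that is not a tRNA enzyme, stood at 1.18 ± 0.43, Chac1 at -0.39 ± 0.38 and Trib3 at 0.15 ± 0.60, and none of these 3 passed. Of the synthetases whose promoters held the element letters, Tars fell at day 2, while Gars stood at 0.82, Yars at 0.10, Aars at -0.32 and Iars at -0.42 without passing. At day 14, the amino acid carrier gene Slc1a5 and the transcription factor gene Cebpb rose, by 2.06 ± 0.34 and 2.26 ± 0.44. Cbs and Atf5 each fell by 1.84 on the log2 scale. Thus 2 of the 27 genes rose and 2 fell, 14.8% beside 9.79% of all tested genes. From day 2 to day 14, 1 rose and 5 fell, 22.2% beside 16.1% of all tested genes. Psat1 fell there by 2.77 ± 0.32 on the log2 scale.

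Of 7 genes listed as cytosolic elongation factors 2, 28.6%, rose at day 2 and 0 fell, beside 9.72% higher and 11.5% lower over all tested genes. Eef1d rose by 1.49 ± 0.21 and Eef1b2 by 1.43 ± 0.29 log2 units. Of 13 mitochondrial translation factors and transamidation genes 2 rose and 1 fell, 23.1% beside 21.2% of all tested genes. Tsfm, the exchange factor for the mitochondrial elongation factor, rose by 1.24 ± 0.31. Qrsl1, part of the amidase that makes glutaminyl tRNA in mitochondria, rose by 0.87 ± 0.25, and the initiation factor gene Mtif2 fell by 1.06 ± 0.24 on the log2 scale. Of 77 tested mitochondrial ribosomal protein genes 21, 27.3%, rose at day 2 and 0 fell, beside 9.72% higher and 11.5% lower over all tested genes. Their median was 0.63, beside 0.05 over all tested genes. Of 15 mitochondrial synthetases 0 were higher and 1 lower, with a median of 0.24. At an unadjusted p under 0.05 there were 36 of these 77 genes and 3 of the 15 synthetases, beside 4633 of all 12340 tested genes. The longest transcripts of the ribosomal protein genes had a median of 1849 bases, shorter than the synthetases, and the part of length was not tested. Among 32 genes of tRNA maturation, export and editing 6, 18.8%, rose at day 2 and 0 fell. Over all tested genes 9.72% were higher and 11.5% lower. An unadjusted p under 0.05 was found for 10 of the 32. The RNA polymerase III subunit gene Polr3d rose by 1.21 ± 0.19 log2 units.

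Wars, known to be induced by interferon, was read beside interferon response genes. It was at 8.97 and 9.77 FPKM in control, at 16.1, 11.1, 18.3 and 12.4 at day 2 and at 7.17 and 9.42 at day 14, with log2 changes of 0.55 ± 0.25 at day 2 and -0.72 ± 0.25 from day 2 to day 14 (limma adjusted p = 0.142 and 0.0801). All day 2 libraries were above all other libraries. Of 17 tested interferon response genes 0 rose and 3, 17.6%, fell at day 2, beside 9.72% higher and 11.5% lower over all tested genes. The same 3 had an unadjusted p under 0.05, beside 4633 of all 12340 tested genes. Of the 3, Ifit1 fell by 1.42 ± 0.21 and Rsad2 by 1.35 ± 0.23 on the log2 scale. From day 2 to day 14 Ifit1 and Ifit3 rose, by 0.94 ± 0.21 and 0.98 ± 0.26 log2 units, and 0 fell. This is 11.8% called higher, beside 9.09% higher and 7.03% lower over all tested genes. An unadjusted p under 0.05 was found there for 4 of the 17, beside 4200 of all 12340 tested genes.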

How the data were processed

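The deposited table gives gene values headed FPKM, per the file headers, with 1 column for each library. Per the submitters' processing notes, the builds GRCm38 and mm9 and the tools Cufflinks 2.2.1, HISAT2 2.10, DESeq2 and HTSeq were named, without role or order. Which of these made the table is not given in the sources used here. Genes reaching 1 FPKM in 2 or more libraries were fitted as log2(FPKM + 1) in limma 3.58.1 (R 4.3.3) with 3 group means, a mean-variance trend and 5 residual degrees of freedom. The fit used the whole table and was tested on simulated data. Of genes set apart by 1 log2 unit there, it recovered 13% for day 2 against control. It recovered 5% for day 14 against control and 9% for day 14 against day 2. With 2 log2 units the values were 53%, 55% and 53%. Far fewer genes were changed there than were called in the data. For day 2 against control 71 were called in the simulation and 2620 in the data. The adjusted cutoff was thus stricter in the simulation, and these shares are not those of the real fit. The share recovered in the real fit is unknown, and a member that did not pass is not shown to be unchanged. Coordinates, overlaps and lengths came from GENCODE M21 (GRCm38); promoters came from RefSeq GRCm38.p6. Day 2 replicate 1 was grouped by its age label although its title says d1; the letters TVR in the title of replicate 3 are unexplained. The members and lists were chosen with earlier results of these data known. All members are named; of each other list at most the 3 largest called changes are (1 is not reported here), besides Atf4, Asns, Ddit3, Chac1 and Trib3. Values in every library were set for called members and the most and least abundant; those of other members, Aimp1 and Aimp2 were added after they were seen. The fit was repeated with quantile or median-ratio scaling, a pseudocount of 0.1, a filter at 5 FPKM or none, the 2 compared groups alone, limma without trend, removal of the length and GC trend (splines of 4 degrees of freedom), and leaving out each library.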

Additional observations from a re-analysis of the deposited data

Results flagged for a closer look

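In 2 of 36 synthetases 1 day 2 library lay apart from the other 3 by Dixon's criterion on log2(FPKM + 1), which chance meets in about 1 of 20 such groups. Both belong to the cysteine enzymes and both are replicate 1. Cars was at 18.7 FPKM there, beside 23.6 to 24.7 FPKM in replicates 2 to 4. Cars2 was at 4.88 FPKM there, beside 7.85 to 8.46 FPKM.

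The effect against control differed between the 2 times in 3 synthetases, where the test of day 14 against day 2 is the test of that difference. The log2 difference was -1.27 for Gars, -1.12 for Hars and -1.29 for Kars.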

How the results depend on the processing

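At day 2 against control 4 synthetases were called, and 7 with the filter at 5 FPKM; leaving out each library gave 0 to 7. At day 14 against control 5 were called, and 2 with a pseudocount of 0.1, 2 with no filter, 3 with median-ratio scaling, 3 with quantile scaling, 8 with only the compared groups and 3 with the length and GC trend removed; leaving out each library gave 0 to 9. From day 2 to day 14 it was 3, and 0 to 6 without each library. The causes were not tested. No called member changed sign in any alternative, and the class medians moved by less than the spread between libraries, 0.17 for the cytosolic and 0.22 for the mitochondrial class. The cytosolic medians of -0.4 from day 2 to day 14 and -0.26 at day 14 against control were larger in size than that spread. The mitochondrial median of 0.24 at day 2 was barely larger, and the other class medians were smaller. The cytosolic median at day 2, 0.14, was 0.02 with quantile scaling, 0.22 with the trend removed and 0.08 to 0.25 without each library. At day 14 against control the cytosolic median, -0.26, ran from -0.32 to -0.16 and the mitochondrial median, 0.08, from -0.11 to 0.26 without each library. The mitochondrial median from day 2 to day 14, -0.02, was 0.06 with quantile scaling or the trend removed. Over all genes, removal of the trend left 1739 calls in place of 2620 at day 2 and 508 in place of 1208 at day 14 against control. The stricter promoter letters took the share of members from 18.5% to 7.4%. No paired analysis was possible because no 2 groups share more than 1 number in their titles: the number 2 stands in the titles of control replicate 2, day 2 replicate 1 and day 14 replicate 1. Absolute depth was unknown, so no counting interval was given.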

Other observations

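The threonine gene Tarsl2 is in the table but outside the 36 listed symbols. It measured 4.05 and 3.73 FPKM in control, 1.47, 0.611, 2.96 and 2.25 FPKM in day 2 replicates 1 to 4, and 1.56 and 2 FPKM at day 14. All its libraries after surgery were below both controls, as for Tars, but it did not pass at either time (log2 change -0.87 ± 0.34 and -0.82 ± 0.40; limma adjusted p = 0.106 and 0.207).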
